A study of Mus musculus with 48 samples.

Results

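The lysates of 4T1 cells that carried the M141R form of FLAG-CNOT7 were compared with the lysates of 4T1 cells that carried the empty vector, to ask whether transcript levels differ under a form of the deadenylase that cannot join the CCR4-NOT complex. The 10 libraries were taken by their labels, 5 M141R lysates and 5 vector lysates paired by replicate number (6 to 10), of 48 libraries in the series. The other libraries are anti-FLAG precipitates, and lysates of cells with wild-type CNOT7 or the D40A or E247A/Y260A mutants. 4T1 is a mouse mammary carcinoma line from a BALB/cfC3H animal that spreads from the mammary gland to the lung. The M141R cells carried a human FLAG-tagged CNOT7 cDNA with a methionine to arginine change, placed in a lentiviral vector behind the murine Pol2 promoter, beside their own Cnot7 gene, and the vector group carried the control vector 8166-M24-658. By the study's methods transduced cells were selected with blasticidin. The labels state that no treatment was given ahead of lysis, and the lysate RNA was depleted of rRNA. The labels do not say whether the replicates came from separate transductions or cultures, so a p-value here measures only the spread between these libraries, which may be technical.

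The CCR4-NOT complex shortens the poly(A) tails of mRNAs, which leads to decapping and decay or to storage without translation. CNOT1 is its scaffold, CNOT7 and CNOT8 are alternative catalytic subunits that dock on a central domain of CNOT1, and CNOT6 and CNOT6L are a second kind of nuclease in the same complex. Proteins of the BTG/TOB family bind CNOT7 on another face and bring it to mRNAs, and according to the study the M141R form keeps TOB1 while it loses CNOT1.

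The deposited table gave reads counted on 26899 gene models, called entries here. Total counts ranged from 440336 to 728190 (median 598811) in the M141R lysates and from 425297 to 647077 (median 544815) in the vector lysates. The kit kept the strand of each read, but the strand setting of the counting was not stated, and several entries were high where an abundant gene lies opposite them. Zdhhc2 had 934 to 1677 counts and Cnot7, whose exons overlap it on the other strand, had 62 to 178. Snx22 had 1855 to 5537 counts while Ppib opposite it had 11 to 39, and Actb itself had 7 to 38 and Gapdh 0 to 8. Of the tested entries found in GENCODE M21, 69.4% shared exon bases with a gene on the other strand, against 27.2% of all entries. These levels raise a doubt whether reads were counted on the strand of the transcripts or on the opposite one. If on the opposite one, the value of an entry, also of an entry with no gene opposite, need not be the level of the mRNA it is named for, and a low count may be antisense or residual reads. Reads from a pair on opposite strands cannot be told apart here, so the gene opposite is given for the named entries that have one. Epithelial markers were present at a summed level of 111 to 187 CPM (counts per 1000000 of the library's total) in the M141R lysates and 108 to 252 in the vector lysates, with Krt14, Krt5 and Elf3 at 0 (Gm26642, opposite Elf3, had 87 to 476 counts), and the summed levels of the fibroblast, leukocyte, endothelial and adipocyte markers were 41.7 to 60.4, 53.0 to 109, 6.68 to 43.0 and 8.24 to 41.2 in the M141R lysates against 34.9 to 77.3, 61.1 to 116, 5.51 to 40.2 and 1.55 to 35.3 in the vector lysates. Only 1 fibroblast, 1 leukocyte and 1 adipocyte marker had enough counts to be tested. Of these, Tagln has Gm48529 and Pcsk7 opposite and Csf1r has Hmgxb3. The sums therefore need not show such cells in lysates of a single carcinoma line. In bulk lysates, fewer cells of a kind and less RNA per cell cannot be told apart.

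Libraries with the same replicate number deviated from their groups in the same way. After the group means were removed, the M141R and vector libraries of a number correlated across entries at 0.758, 0.144, 0.486, 0.579 and 0.776 for replicates 6 to 10. Number 7 was the exception in rank, since M141R replicate 7 correlated at 0.32 with vector replicate 9, and vector replicate 7 at 0.231 with M141R replicate 9. The pairing was therefore kept in the test, with the replicate number as a block.

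**Figure D1:**
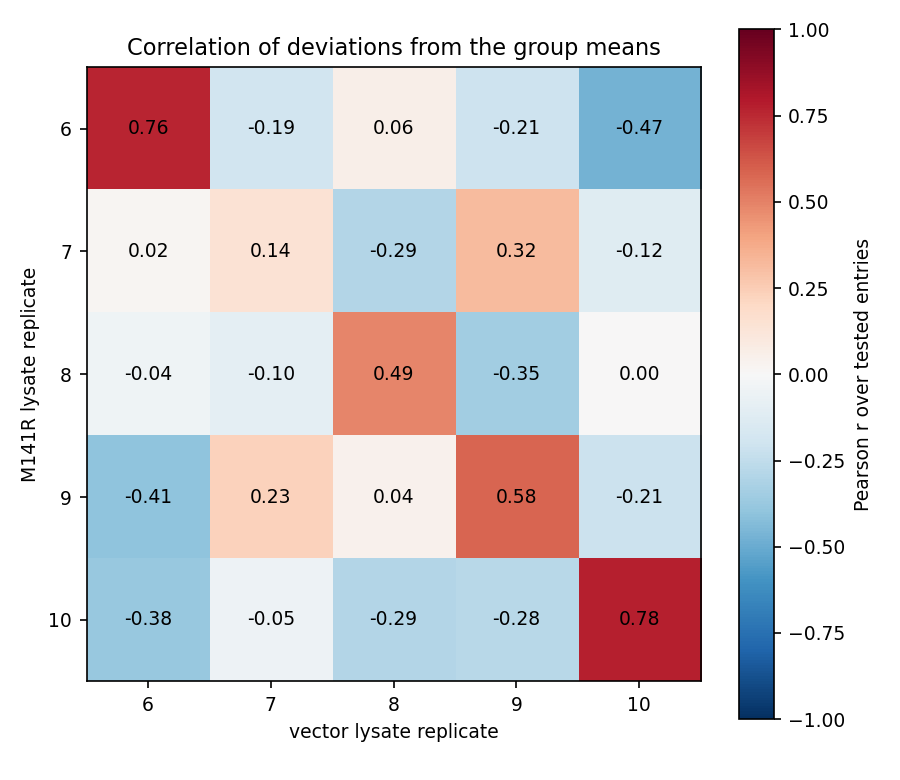
Pearson correlation, across the tested entries, of each M141R lysate's deviation from its group mean (rows, replicate number) with that of each vector lysate (columns). The same-number values on the diagonal run from 0.14 to 0.78, and replicate 7 is the lowest of them.

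No entry passed the test between M141R and vector lysates. By edgeR's quasi-likelihood test with the replicate block, 0 of 2978 entries tested were called higher and 0 lower at an adjusted p (Benjamini-Hochberg) under 0.05, which is 0% called, and the lowest adjusted p was 0.908. At an unadjusted p under 0.05 there were 150 entries, 5.04% of those tested, of which 60 were higher in M141R (2.01%) and 90 lower (3.02%). DESeq2 with the same block also called 0, and its unadjusted p was under 0.05 for 19 higher and 41 lower entries. The median log2 fold change of M141R over vector was 0.00.

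The median standard error of a log2 fold change was 0.25 and its 95% interval reached a median of 0.53 to either side of the estimate. For 2963 of the 2978 entries it reached less than 1 log2 unit. These widths are not a limit of detection, since entries with log2 fold changes beyond 1, such as Gm29200, did not pass the adjusted threshold either. A further 23921 entries had too few counts to be tested.

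**Figure D2:**
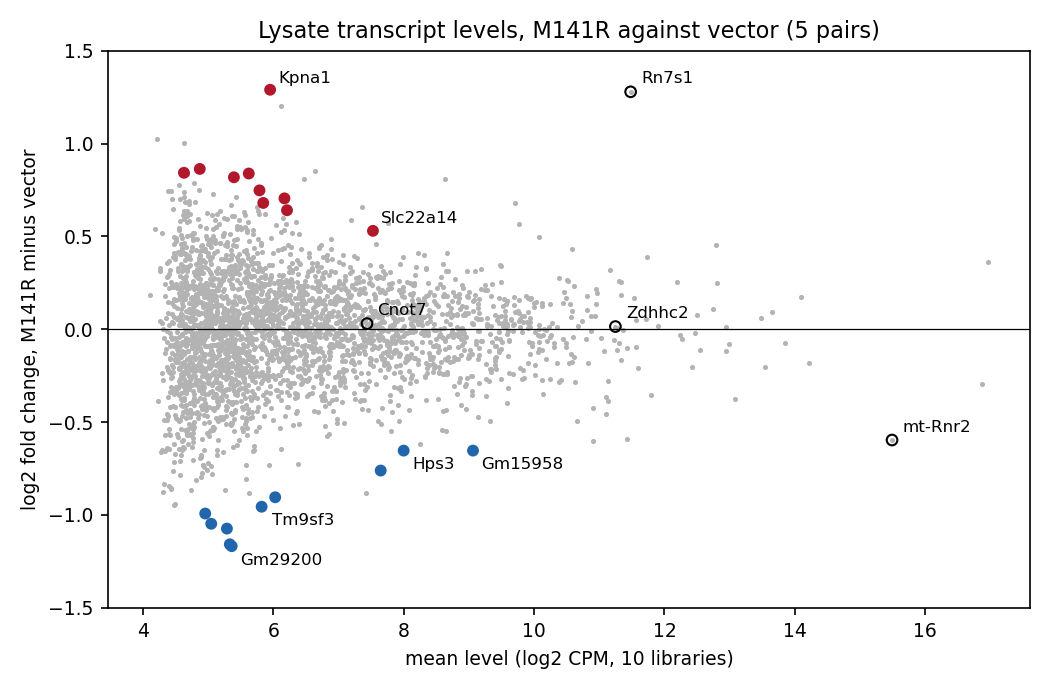
Log2 fold change of M141R over vector lysates against the mean level (log2 CPM over the 10 libraries) for the 2978 entries tested. Red and blue points are the 10 entries per direction with the lowest unadjusted p, open circles mark Cnot7, Zdhhc2, mt-Rnr2 and Rn7s1, and no entry passed the adjusted threshold.

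The Cnot7 entry, which carries the mouse gene whose human cDNA was introduced, did not separate the groups. Its level, in CPM scaled by TMM as all levels below, was 280, 146, 131, 156 and 152 in M141R replicates 6 to 10, and 196, 156, 171, 169 and 135 in the vector replicates. M141R was higher in the pairs of replicates 6 and 10 and lower in the other 3, and the groups overlapped. The log2 fold change was 0.03 (SE 0.17, 95% interval −0.33 to 0.39), so the interval holds differences of up to about that size in either direction. On log2 CPM the groups had means of 7.41 ± 0.42 and 7.39 ± 0.19 (SD, n = 5), with an exact two-sided paired permutation p of 0.875, where 5 pairs can give no p below 0.0625. The estimate rests on the pair of replicate 6, without which it was −0.10.

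Zdhhc2, a palmitoyltransferase gene whose entry lies opposite Cnot7 and was examined after its counts were seen, gave the same picture. It stood at 2230, 1950, 3080, 3050 and 1950 CPM in the M141R libraries and at 1840, 2510, 2940, 2500 and 2230 CPM in the vector libraries. The ranges overlapped, and the log2 fold change was 0.01 (exact paired permutation p = 0.938, n = 5). Neither entry checks the labels. Whether reads of the human cDNA were aligned to the mouse gene was not tested.

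Of the 12 CCR4-NOT subunit genes, 4 had enough counts to be tested and none passed. Cnot1, the scaffold that M141R cannot bind (4930513N10Rik opposite), was at 17.3, 18.9, 28.1, 32.8 and 42.2 CPM in M141R and 37.8, 30.0, 34.3, 18.7 and 30.7 CPM in vector. It was lower in 3 pairs and higher in 2, with a log2 fold change of −0.18 (SE 0.31, unadjusted p = 0.566). Cnot3, a regulatory subunit gene that has Leng1 opposite, had a log2 fold change of 0.09 (SE 0.32) and Cnot6l, the other nuclease, one of −0.03 (SE 0.37). The median over these 4 was 0.00, equal to that of all entries tested to 2 decimals. The other 8 subunit genes, Cnot2, Cnot4, Cnot6, Cnot8, Rqcd1 (CNOT9), Cnot10, Cnot11 and Tnks1bp1, had between 0 and 21 counts per library and could not be tested. Cnot8, the paralog of Cnot7, had 16 counts in all 5 M141R lysates together and 17 in all 5 vector lysates. Entries opposite subunit genes, looked at after the strand of the counts was seen, numbered 3, all above 0 (median 0.16). Beside Zdhhc2 these were Usp37 opposite Rqcd1 (350 to 639 counts, log2 fold change 0.16, SE 0.16) and Leng1 opposite Cnot3 (0.33, SE 0.30). None passed, and whether Usp37 holds reads of Rqcd1 was not tested.

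Among the BTG/TOB genes only Btg1, an antiproliferative adaptor of CNOT7, was tested. Its levels were 28.3, 41.2, 18.1, 80.7 and 16.6 CPM in M141R and 20.8, 49.4, 12.8, 91.1 and 14.4 CPM in vector, so that each pair moved with its number and the log2 fold change was 0.05 (SE 0.27). Tob1 had 4 counts in all M141R lysates together and 1 in all vector lysates. The entry Cxadr shares 695 exon bases with Btg3 on the other strand, and Gm49590 also lies opposite it. Cxadr was lower in 5 of 5 pairs, with a log2 fold change of −0.44 (SE 0.19, unadjusted p = 0.0333, adjusted p = 0.908).

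**Figure D3:**
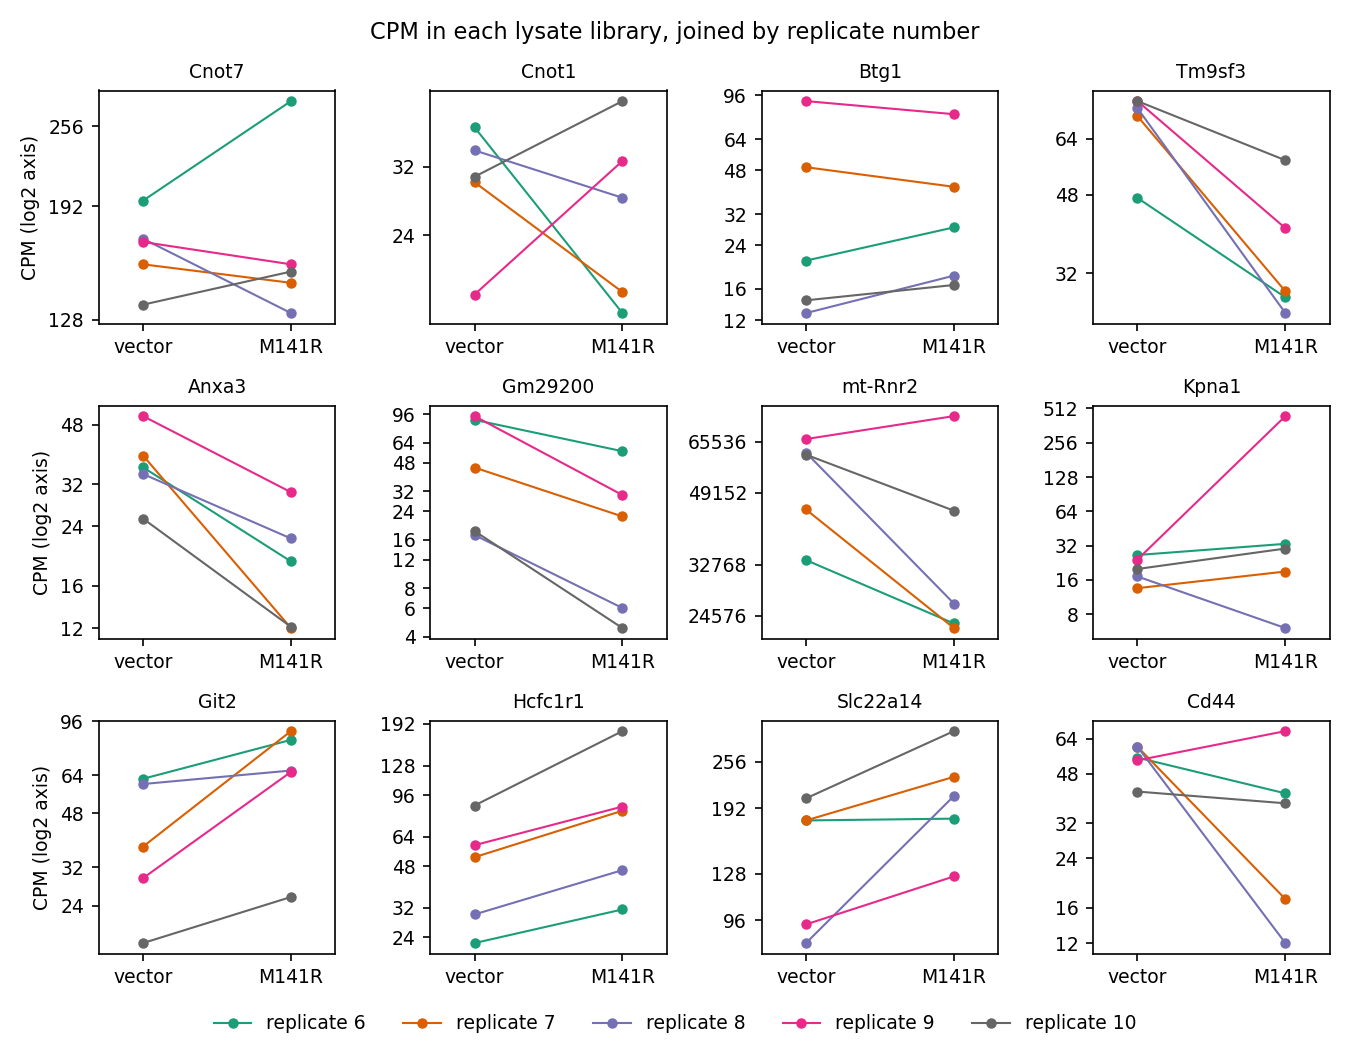
CPM of 12 entries in each lysate library on a log2 axis, with a line joining the vector and M141R libraries of the same replicate number. Tm9sf3, Anxa3 and Gm29200 slope down in all 5 pairs and Git2, Hcfc1r1 and Slc22a14 slope up in all 5, while for Kpna1 replicate 9 alone reaches 439 CPM.

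The entries with the lowest unadjusted p are described next as the 10 lowest per direction. None passed the threshold, and each had an adjusted p of 0.908. Of all entries tested, 236 (7.92%) had all 5 pairs on the same side, and only 2 (0.0672%) had groups that did not overlap.

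Toward lower levels in M141R, the entry with the lowest p was Gm29200, a noncoding entry that shares 197 exon bases with Lama3 on the other strand. Lama3 encodes a chain of laminin in the epithelial basement membrane. Gm29200 stood at 56.7, 22.3, 6.02, 30.3 and 4.52 CPM in M141R and at 88.8, 44.9, 17.1, 93.7 and 18.1 CPM in vector. All 5 pairs were lower in M141R, though the groups overlapped. The log2 fold change was −1.17 (SE 0.29, 95% interval −1.77 to −0.57, unadjusted p = 0.000573). Tm9sf3, which encodes a membrane protein of the Golgi and endosomes and has no gene opposite, was at 28.3, 29.2, 26.1, 40.4 and 57.3 CPM against 47.2, 71.9, 74.9, 77.7 and 77.7 CPM. Here the 2 groups met only at the M141R library of replicate 10 and the vector library of replicate 6. Its log2 fold change was −0.96 (SE 0.25, unadjusted p = 0.000901). Anxa3, a calcium-dependent phospholipid-binding annexin with no gene opposite, was at 18.9, 12.0, 22.1, 30.3 and 12.1 CPM against 35.9, 38.9, 34.3, 50.9 and 25.3 CPM, also lower in 5 of 5 pairs (log2 fold change −0.99, SE 0.29).

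Of the other low entries, 4 lay opposite named protein-coding genes. Hps3, a subunit gene of a complex that builds lysosome-related organelles, has the ceruloplasmin gene Cp opposite and was lower in 5 of 5 pairs, at −0.65 (SE 0.18). Its levels ran from 58.0 to 469 CPM in M141R and from 64.3 to 975 CPM in vector, with replicate 10 the highest in both groups. Gm15958 lies opposite Ccbe1, a gene of lymphatic vessel growth, and was lower in 4 of 5 pairs at −0.65 (SE 0.19). Gm12223 shares 96 bases with Csf2, the gene of the cytokine GM-CSF, and was at 142, 137, 78.3, 53.0 and 206 CPM in M141R against 183, 166, 68.5, 118 and 797 CPM in vector. The largest gap was in replicate 10, and without that pair its log2 fold change went from −0.76 (SE 0.24) to −0.40. Gm27820, opposite the hedgehog inhibitor gene Hhip, went from −0.90 (SE 0.29) to −0.53 without the same pair. The remaining 3 were 9330111N05Rik at −1.05, 9330175M20Rik at −1.07 and 4930578I06Rik at −1.16, which reached at most 58.9, 85.0 and 193 CPM in any library, and the first of them has Gm4211 opposite.

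Toward higher levels in M141R the differences were of similar size. Mamdc4, an endosomal membrane protein gene, was at 28.3, 80.6, 54.2, 47.9 and 78.4 CPM in M141R and 18.9, 28.5, 47.1, 24.1 and 43.3 CPM in vector. All 5 pairs were higher, with a log2 fold change of 0.84 (SE 0.27, 95% interval 0.29 to 1.39, unadjusted p = 0.00456). Git2, which encodes a regulator of ARF GTPases at focal adhesions and has no gene opposite, was at 83.5, 89.2, 66.3, 65.6 and 25.6 CPM against 62.3, 37.4, 59.9, 29.5 and 18.1 CPM, higher in 5 of 5 pairs at 0.68 (SE 0.25). Slc22a14, a gene of the organic ion transporter family, was at 180, 233, 207, 126 and 309 CPM against 178, 178, 83.5, 93.7 and 204 CPM, at 0.53 (SE 0.19). The replicate 6 pair of Slc22a14 was nearly level and that of replicate 8 the widest.

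Several of the higher entries also have a gene opposite. Hcfc1r1 has Thoc6, a gene of the mRNA export machinery, opposite and was higher in 5 of 5 pairs at 0.71 (SE 0.23). Klhdc9 has the prefoldin gene Pfdn2 opposite (0.82, SE 0.28, 4 of 5 pairs), and Acadvl, a mitochondrial fatty acid oxidation gene, has the Wnt pathway gene Dvl2 opposite (0.75, SE 0.28, 4 of 5 pairs). Gm27206, opposite the phospholipase gene Plcg1, had 0.86 (SE 0.30). Gm11696, opposite the G protein gene Gna13 and 1700096J18Rik, had 0.64 (SE 0.22), and Immt, of the mitochondrial cristae complex and opposite Gm44771, had 0.84 (SE 0.32), each in 5 of 5 pairs.

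Kpna1, which encodes an importin of nuclear transport, owed its place to 1 library. It was at 33.1, 18.9, 6.02, 439 and 30.1 CPM in M141R and at 26.4, 13.5, 17.1, 24.1 and 19.9 CPM in vector. Its log2 fold change was 1.29 (SE 0.49) with all pairs and 0.19 (unadjusted p = 0.643) without the pair of replicate 9. Rn7s1, a 7SL RNA gene of the signal recognition particle examined after its counts were seen, was likewise uneven. It had 3221, 3087, 1464, 48 and 2114 counts in M141R replicates 6 to 10 and 3243, 1, 2344, 283 and 0 in the vector libraries, with a log2 fold change of 1.28 (SE 1.35). It was −0.05 without the pair of replicate 10 and 3.37 without that of replicate 9. Very low and very high counts occurred within the vector group, so the value is uncertain. Near-identical 7SL copies may also share reads, which was not tested.

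The 2 entries whose groups did not overlap were both higher in M141R and were named for that reason. Gm26819, opposite the Mediator subunit gene Med10, was at 526, 600, 524, 547 and 548 CPM in M141R and 503, 421, 518, 423 and 363 CPM in vector, with a log2 fold change of 0.31 (SE 0.16, unadjusted p = 0.0638). Gm13066, opposite the beta-catenin inhibitor gene Ctnnbip1, had 13 to 31 counts in M141R and 7 to 17 in vector and a log2 fold change of 0.73 (SE 0.30, unadjusted p = 0.0217). In both the gap was narrow. The counts of Gm13066 overlapped between the groups, and its lowest M141R library and highest vector library both stood at 32.1 CPM to 3 digits.

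M141R lysates were next set directly against the lysates of cells with wild-type CNOT7 and with E247A/Y260A, the form that keeps CNOT1 but not TOB1. Each group had 5 libraries, with totals of 337861 to 826768 for CNOT7 and 421975 to 617222 for E247A/Y260A. Against CNOT7 0 of 2671 entries passed in either direction (0% called, lowest adjusted p 0.975, 59 or 2.21% at an unadjusted p under 0.05, and 84 by DESeq2, which also called 0). Against E247A/Y260A 0 of 3152 passed (0% called, lowest adjusted p 0.488, 267 or 8.47% at an unadjusted p under 0.05, and 75 by DESeq2, which also called 0). When a pair was left out, the entries at an unadjusted p under 0.05 against CNOT7 numbered from 27 (without replicate 6) to 128 (without replicate 10), and those against E247A/Y260A from 175 (without replicate 6) to 289 (without replicate 7). With no replicate block they numbered 21 and 22. All 3 comparisons use the same M141R libraries, so their values are not independent.

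Side by side, some entries held their size and others did not. Git2 had log2 fold changes of 0.68 over vector, 0.72 (SE 0.29) over CNOT7 and 1.03 (SE 0.21, unadjusted p = 0.000181, adjusted p = 0.488) over E247A/Y260A. 9330175M20Rik had −1.07, −0.56 (SE 0.32) and −1.32 (SE 0.34). Against E247A/Y260A both were called only with no filter on low counts (adjusted p = 0.0196 and 0.0199). Tm9sf3 had −0.96, −0.46 (SE 0.31) and −0.47 (SE 0.22), and Gm29200, the lowest against vector, had −0.91 (SE 0.33) against CNOT7 and 0.13 (SE 0.31) against E247A/Y260A. Mamdc4 and Immt, high over vector, had −0.01 and −0.19 over CNOT7 and −0.15 and −0.24 over E247A/Y260A. Cnot7 itself had 0.35 (SE 0.40) over CNOT7 and 0.14 (SE 0.14) over E247A/Y260A. Whether any of these differed between the comparisons was not tested.

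**Figure D4:**
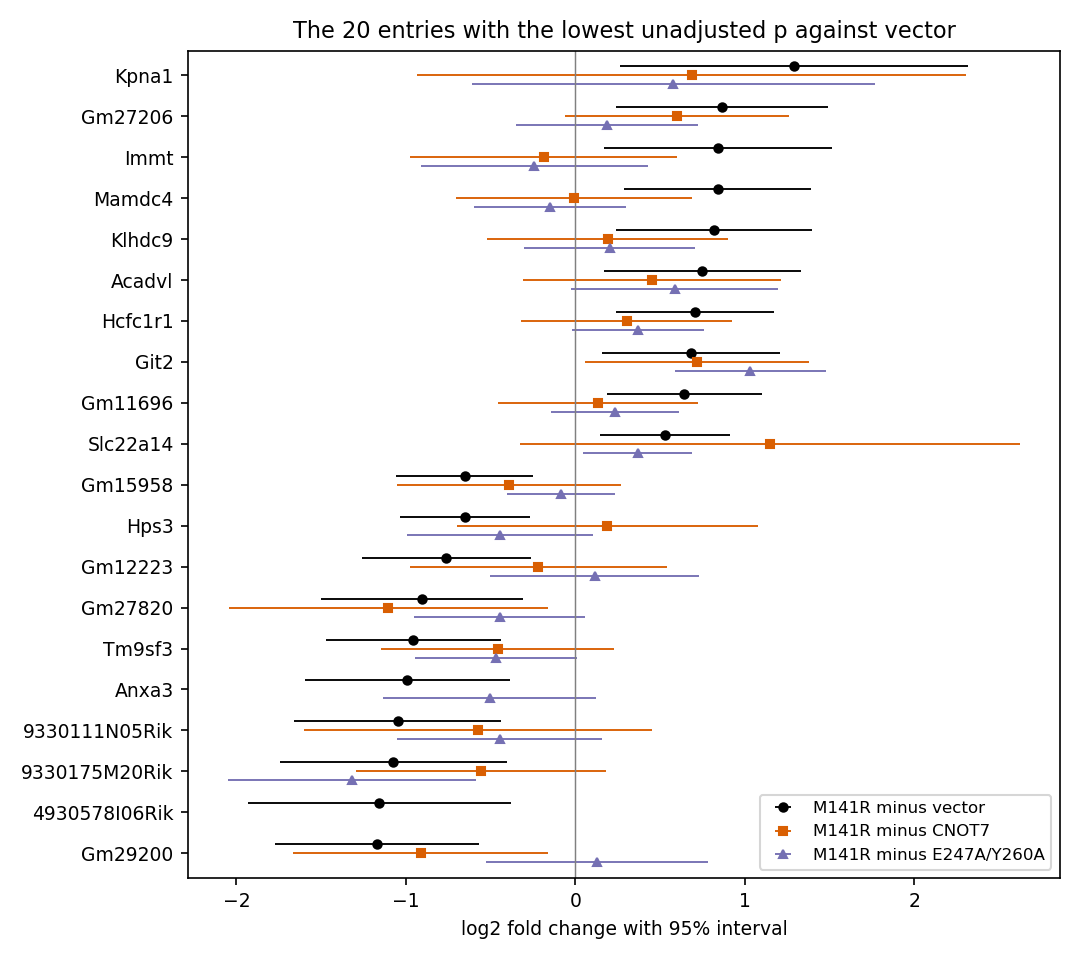
Log2 fold change with its 95% interval for the 20 entries with the lowest unadjusted p against vector, as M141R minus vector, minus CNOT7 and minus E247A/Y260A. A missing symbol means that the entry had too few counts in that comparison; Git2, Hcfc1r1, Slc22a14 and Acadvl are among those right of 0 in all 3, Tm9sf3, Gm27820 and 9330175M20Rik among those left of it, and Mamdc4, Immt, Gm29200, Hps3 and Gm12223 change side. The 3 comparisons share the M141R libraries, and no entry passed the adjusted threshold in any.

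Gene lists from the mRNA decay pathway held few tested members. Every list was read for members higher and lower at an adjusted p under 0.05, which was 0 in each direction for each list, against 0% of all entries. Among other deadenylases, 3 of 8 genes were tested, with log2 fold changes of 0.34 (SE 0.32) for Angel2 and −0.17 (SE 0.16) for Ccrn4l (nocturnin) and a median of −0.17. Of the RNA-binding and silencing adaptors that recruit CCR4-NOT, only Cpeb3 was tested (A330032B11Rik opposite), at 0.15 (SE 0.16). It was at 474, 283, 299, 318 and 181 CPM in M141R and 401, 207, 317, 327 and 159 CPM in vector, on either side of each other in different pairs. Of the decapping and 5-to-3 decay genes, Eif4enif1, an eIF4E-binding component of P-bodies, had −0.42 (SE 0.36) and Edc3, an enhancer of decapping with Clk3 opposite, had 0.12 (SE 0.16). Of the exosome and SKI genes, Exosc3 (Dcaf10 opposite) had −0.21 (SE 0.26), Exosc9 (Ccna2 opposite) 0.17 (SE 0.23) and the median of 3 was 0.07.

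Short-lived mRNAs, whose AU-rich elements make them common targets of deadenylation, had 2 of 30 listed entries tested, with 3 to 22 counts per library. Given the doubt on the strand, such counts need not come from the mRNAs. Cxcl1, a neutrophil chemokine, was at 31.5, 10.3, 12.0, 15.1 and 28.6 CPM in M141R and 39.7, 33.0, 34.3, 34.8 and 18.1 CPM in vector. It was lower in 4 of 5 pairs, at −0.69 (SE 0.34, unadjusted p = 0.0542). Ptgs2, which encodes cyclooxygenase-2, was lower in 5 of 5 pairs at −0.45 (SE 0.31). Entries opposite short-lived mRNAs, looked at after the strand of the counts was seen, numbered 4. Besides Gm12223 opposite Csf2, Junos opposite the transcription factor gene Jun was at 501, 178, 78.3, 68.1 and 61.8 CPM in M141R and 469, 199, 154, 147 and 107 CPM in vector. It was lower in 4 of 5 pairs, at −0.51 (SE 0.19, unadjusted p = 0.0158, adjusted p = 0.908). The other entries of this kind, opposite Pim1 and Plk3, had −0.17 (SE 0.19) and 0.14 (SE 0.34).

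Matrix and adhesion genes had 6 of 30 members tested, 5 of them with a negative log2 fold change and 1 at an unadjusted p under 0.05, with a median of −0.41. Of all 2978 entries 1480 were negative and 5.04% were at an unadjusted p under 0.05, and nothing is read from 6 members. That member was Cd44, the hyaluronan receptor, at 40.9, 17.2, 12.0, 68.1 and 37.7 CPM in M141R and 54.8, 59.9, 59.9, 53.6 and 41.5 CPM in vector. Replicates 7 and 8 made most of the gap and replicate 9 went the other way (−0.73, SE 0.32, unadjusted p = 0.0314). Itgb1, the shared beta chain of many integrins, was lower in 5 of 5 pairs at −0.38 (SE 0.18), or −0.16 without the pair of replicate 8. The fibronectin gene Fn1, named after its values were seen because of the entry opposite it, had −0.44 (SE 0.24), and the positive member, Mmp14, had 0.11 (SE 0.37). Opposite matrix genes, 8 entries were tested, with a median of −0.14. Apol7d, opposite Fn1, was at 1920, 2220, 797, 1010 and 881 CPM in M141R and 2630, 1750, 1030, 1700 and 2090 CPM in vector (−0.49, SE 0.20, unadjusted p = 0.0222), and 8030451A03Rik, opposite the tenascin gene Tnc, was lower in 5 of 5 pairs (−0.73, SE 0.26, unadjusted p = 0.00989). Both had an adjusted p of 0.908.

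Mitochondrially encoded entries are given by class, a grouping made after their values were seen. The 2 rRNA entries had log2 fold changes of −0.60 (SE 0.21, unadjusted p = 0.0108) for mt-Rnr2 and −0.59 (SE 0.24, unadjusted p = 0.0227) for mt-Rnr1. Of 12 mRNA entries 10 were negative, with a median of −0.20, and of 10 tRNA entries 8 were positive, with a median of 0.24. These classes follow the names of the entries only. The tRNA entry mt-Ts1 had 802 to 17751 counts, and mt-Co1 opposite it had 643 to 1726. The mRNA entry mt-Nd6 had 732 to 12802 counts, and mt-Nd5 opposite it had 680 to 2426. Given the doubt on the strand, the values of a class need not be those of its RNAs. mt-Rnr2, the most counted of them, was at 23500, 22900, 26300, 75700 and 44400 CPM in M141R and 33600, 44700, 61600, 66500 and 60900 CPM in vector. Without the pair of replicate 8, mt-Rnr1 went to −0.23 and mt-Rnr2 to −0.41. For mt-Rnr2 M141R was lower in 4 pairs and higher in replicate 9, the library in which Kpna1 was also highest. Against E247A/Y260A mt-Rnr2 had −0.63 (SE 0.15, adjusted p = 0.488), and it was called there only with no filter on low counts (adjusted p = 0.0196). All mitochondrially encoded entries together took 3.76%, 5.99%, 7.08%, 13.3% and 7.57% of the counts in M141R replicates 6 to 10 and 4.42%, 8.71%, 11.6%, 13.3% and 9.02% in the vector libraries. The share was lower in M141R in 4 pairs and level in replicate 9, and this difference was not tested.

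In the unfolded protein and amino acid response list, 4 of 5 tested members were negative (median −0.22). The positive one, the stress-induced transcription factor gene Ddit3 (Mars and Gm4189 opposite), had 0.32 (SE 0.21) and was named after its value was seen. The endoplasmic reticulum chaperone genes Hspa5 and Hsp90b1 (1810014B01Rik opposite Hsp90b1) had −0.39 (SE 0.22) and −0.38 (SE 0.21). Hspa5 was at 134, 101, 88.4, 222 and 145 CPM in M141R and 132, 237, 206, 209 and 112 CPM in vector, so only replicates 7 and 8 carried the gap, and without either of these pairs it went to −0.17. Hsp90b1 ran from −0.59 to −0.20 when a pair was left out. The entry Nup62-il4i1, opposite Tbc1d17 and the listed transcription factor gene Atf5, was at 17.3, 27.5, 24.1, 10.1 and 46.7 CPM in M141R and 7.56, 22.5, 15.0, 2.68 and 27.1 CPM in vector. It was higher in 5 of 5 pairs, with overlapping groups and 1 to 31 counts per library (0.74, SE 0.33, unadjusted p = 0.0358, adjusted p = 0.908). Entries opposite genes of this list numbered 4, 2 positive and 2 negative, and Nup62-il4i1 was shown for its low p. The others were Mars opposite Ddit3 (0.41, SE 0.21), Atp6v1c2 opposite Pdia6 (−0.09, SE 0.33) and 1810014B01Rik opposite Hsp90b1 (−0.20, SE 0.18, 2159 to 3484 counts). Of the sterol and fatty acid synthesis genes Scd2, a stearoyl-CoA desaturase gene, had −0.78 (SE 0.36, unadjusted p = 0.0431) and Acaca, the acetyl-CoA carboxylase gene, had −0.58 (SE 0.34), while the median of the 5 tested was −0.05.

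The other lists lay near the median of all entries or had few members. Cell cycle genes had a median of −0.17 over 4, with −0.26 (SE 0.29) for Ccne2 and −0.24 (SE 0.34) for Kif11. Interferon-stimulated genes had −0.26 over 2, Usp18 at −0.24 (SE 0.27) and B2m at −0.27 (SE 0.30). Entries opposite interferon-stimulated genes numbered 4, 3 of them positive (median 0.25), and those opposite cell cycle genes 6, 5 of them positive (median 0.09). Those opposite glycolysis and hypoxia genes (5, median −0.04) and nuclear-retained RNAs (3, median −0.30) were all negative. Heat shock genes had −0.19 over 3, with Hsp90aa1 at −0.27 (SE 0.25) and Hspe1 at −0.19 (SE 0.30), and Pfkp, the only glycolytic gene tested, had −0.13 (SE 0.18). Among nuclear-retained RNAs Malat1 had −0.38 (SE 0.23) and Gas5 −0.24 (SE 0.31). Malat1 went to −0.03 without the pair of replicate 7, where it was at 96.1 CPM in M141R and 343 CPM in vector. It ran from 66.1 CPM to 1160 CPM over the 10 libraries, with replicate 10 highest in both groups at 952 and 1160 CPM. Cytosolic ribosomal protein genes were balanced, 5 above and 5 below 0 (median 0.00), with Rpl5 at −0.35 (SE 0.20) and Rpl23a at −0.52 (SE 0.31), while Tlcd1, opposite Rpl23a, had 0.06 (SE 0.18). On the other strand, Ccne2 has Ints8, Usp18 has Gm44148, Hspe1 has Hspd1, Pfkp has Pitrm1, Malat1 has Gm37376 and Rpl5 has Fam69a. No mesenchymal transition or histone gene was tested.

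The study's own lists gave no called member either. Of its transcripts bound by CNOT7, 15 were tested, 4 above and 11 below 0, with a median of −0.20 beside 0.00 for all entries. The study chose that list on libraries of this series, so its direction here is not independent evidence. Sorbs2, a cytoskeletal adaptor gene with Sorbs2os opposite, was at 18.9, 46.3, 66.3, 80.7 and 121 CPM in M141R and 39.7, 89.9, 77.1, 61.6 and 199 CPM in vector (−0.51, SE 0.23, unadjusted p = 0.0387). Qtrtd1, of tRNA queuosine modification, had −0.42 (SE 0.25). The sublist with 3 motifs had 9 tested members and the same median. Of the transcripts that moved against Cnot7 on the study's arrays, 55 were tested, 26 above and 29 below 0 (median 0.00), with the sodium channel gene Scn8a at 0.84 (SE 0.33) and the guidance receptor gene Robo1 at −0.63 (SE 0.26).

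**Figure D5:**
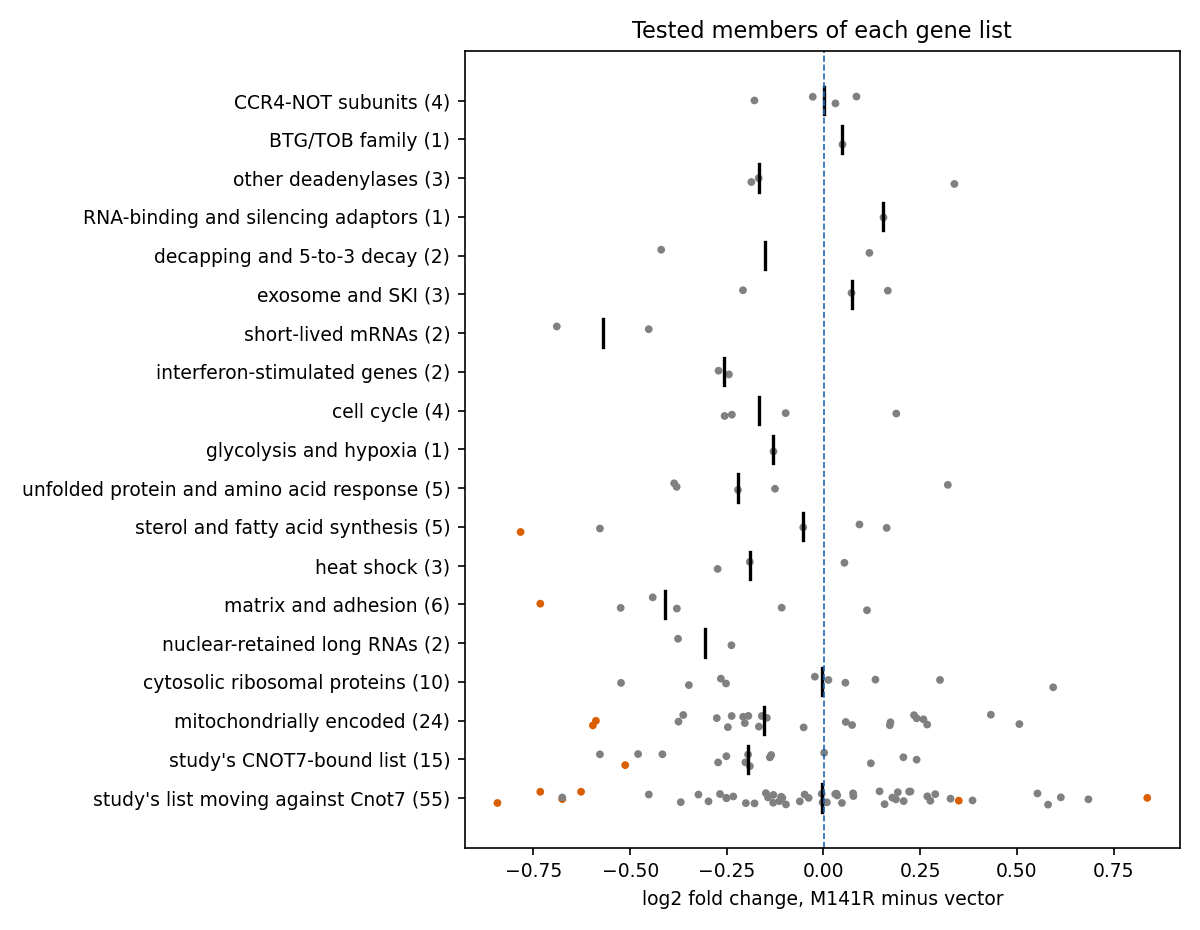
Log2 fold change of M141R over vector for the tested members of each gene list (number tested in brackets), with a black bar at the list's median and a dashed line at the median of all 2978 entries. Orange points had an unadjusted p under 0.05, and none passed the adjusted threshold. Most lists have 6 or fewer tested members.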

How the data were processed

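RNA of lysates (input) and anti-FLAG precipitates of 4T1 cells was sequenced on an Illumina HiSeq 2500 after a directional library preparation. The authors deposited unnormalized read counts per Ensembl gene; the submitters' processing notes name BWA, HTSeq and mm9, with no versions, and the strand setting is not given in the sources used here. Symbols missing from the table, and exon overlaps on the opposite strand, were taken from GENCODE M21, which holds 26555 of the 26899 identifiers; it is on another build, so no coordinates are given. The 5 M141R and 5 vector input libraries were fitted with edgeR 4.0.16 (R 4.3.3; TMM, filterByExpr, glmQLFit and glmQLFTest, Benjamini-Hochberg, 0.05) with replicate number as a block, since every same-number correlation of deviations exceeded 0.1 (lowest 0.144 against vector, 0.12 against CNOT7, 0.348 against E247A/Y260A). The study's methods give no pairing across constructs, so the pairing comes from the numbers in the labels and these correlations. log2 CPM used a prior count of 2. M141R was compared in the same way with CNOT7 and E247A/Y260A inputs. Cnot7 was also tested by an exact paired permutation test (Python 3.11.15). The fit was also run on simulated counts with large seeded changes, a fixed dispersion and no replicate effect. That run checks the code and does not measure the power to find small changes in these data. The lowest chi-square per degree of freedom between replicates of a group was 6.89, above counting noise, so no replicate was the same library counted again; whether replicates share a culture or RNA is not tested by this.

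Alternatives were the fit without the block, library size without TMM, DESeq2 size factors, the DESeq2 1.42.0 Wald test, no filter, at least 10 counts in every library, all 24 inputs in one fit, and each pair left out. The members and gene lists were chosen with earlier results of these data known. Named were tested CCR4-NOT and BTG/TOB genes, the 10 entries per direction with the lowest unadjusted p because none passed, and up to 2 members per list by lowest unadjusted p. Entries opposite list genes, and others said to be added or chosen after their values were seen, are additions. D40A inputs entered only the fit of all 24 inputs, the precipitates were used only to pick 13 dominant entries, and the array data were not analysed here.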

Additional observations from a re-analysis of the deposited data

Results flagged for a closer look

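Among the 57 named genes, 114 groups of 5 libraries were checked for a library far from the other 4 (Dixon's ratio on log2 CPM above 0.71). The rule flagged 6 values, which is close to the share of about 1 group in 20 that chance flags. Cnot7 in M141R replicate 6 was at 280 CPM, with the other M141R lysates at 131 to 156. Git2 in M141R replicate 10 was at 25.6 CPM, with the others at 65.6 to 89.2. In the vector lysates, Tm9sf3 in replicate 6 was at 47.2 CPM against 71.9 to 77.7, Gm15958 in replicate 6 at 1380 CPM against 379 to 482, Klhdc9 in replicate 10 at 43.3 CPM against 18.7 to 24.0, and Cxcl1 in replicate 10 at 18.1 CPM against 33.0 to 39.7. All 6 lie in replicates 6 and 10, whose M141R and vector libraries also had the highest same-number correlations, 0.758 and 0.776. This was seen after the values were known and was not tested.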

How the results depend on the processing

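The counts of 0 called entries in each direction held under every alternative but the fit with no filter on low counts, and the replicate block changed no call. With no replicate block the M141R and vector lysates also gave 0 higher and 0 lower, with 7 and 7 at an unadjusted p under 0.05 in place of 60 and 90. With no filter on low counts, M141R against vector gave 2 higher, Rn7s1 and Rn7s2, both 7SL genes that were tested and not called with the filter. The same fit gave 2 higher (Cct6b and Il1rapl1) and 31 lower against CNOT7, and 3 higher (Git2, Il1rapl1 and Rn7s1) and 8 lower (mt-Rnr2, mt-Co1, mt-Nd5, mt-Cytb, Gm10800, Gm10801, Gm26870 and 9330175M20Rik) against E247A/Y260A, of which all but Il1rapl1 were tested and not called with the filter; most of the 31 had counts in CNOT7 replicate 10 alone. Entries at an unadjusted p under 0.05 against CNOT7 and E247A/Y260A numbered 268 and 170 with all 24 inputs in one fit, 49 and 173 with at least 10 counts in every library, and 442 and 678 with no filter, in place of 59 and 267. Against vector they numbered 94 with at least 10 counts in every library and 447 with no filter, in place of 150. The lowest adjusted p without a pair was 0.347, without replicate 7. Scaling by library size without TMM moved the median log2 fold change to 0.15 against CNOT7 and by under 0.1 in the other comparisons.

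For Cnot7, the mean pair difference ranged from −0.10 (without replicate 6) to 0.12 when a pair was left out, and was −0.02 without replicate 10; the unpaired exact permutation test gave p = 0.968. Over the named genes, 628 of 643 alternative fits kept the direction, though 20 of the genes were chosen for a low p on the same libraries. Leaving out 1 pair moved the value of 32 of the 57 by over 1.5 times or turned its sign. Those that turned sign were small. Cnot6l went to 0.02 without TMM, 0.06 by DESeq2 and 0.04 with no filter, and Btg1 to −0.03 with no replicate block. Leaving out each pair in turn moved Cnot1 between −0.40 and 0.06, Cnot3 between −0.20 and 0.30, Cnot6l between −0.27 and 0.19, Cnot7 between −0.10 and 0.16, Btg1 between −0.03 and 0.17, Exosc3 between −0.34 and 0.03, Exosc9 between −0.05 and 0.43, Kif11 between −0.53 and 0.19, Hspe1 between −0.38 and 0.10 and Gas5 between −0.65 and 0.07. The causes were not tested. With totals of 425297 to 728190 counts per library, 2978 of 26899 entries passed the filter on low counts, and 21709 entered the fit with no filter. Why the other entries had low counts was not tested.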

Other observations

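Entries that dominate the anti-FLAG precipitates were also present in these lysates. The 13 entries with the most counts over all precipitates took 8.7% to 16.7% of the counts in the M141R lysates (mean 13.4% ± 3.02, SD, n = 5) and 11.2% to 21.1% in the vector lysates (14.6% ± 4.31), so the ranges overlapped.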
